A study of Saccharomyces cerevisiae with 16 samples.

Results

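The nuclear genes for the respiratory chain and the ATP synthase of budding yeast were examined for H3K4me3, the trimethylated lysine 4 of histone H3 that marks the first nucleosomes of active genes. The 39 genes, out of 6002 nuclear protein-coding genes, were taken by name: 9 genes of complex III, 2 cytochrome c genes, 9 of complex IV, 12 of the ATP synthase, 4 of complex II and 3 dehydrogenases. Each gene was given a window from 200 bp upstream of its annotated start to its end in the sacCer3 genome, and the H3K4me3 peaks overlapping that window were collected in 8 CUT&RUN libraries. CUT&RUN tethers a nuclease to antibody-bound chromatin and sequences the DNA that is cut free. The strains were BY4741 (his3Δ1 leu2Δ0 met15Δ0 ura3Δ0) carrying a synthetic locus of human *HPRT1* with its flanks (synHPRT1) or the same locus with its base order reversed (synHPRT1R). Each locus was held either outside the chromosomes on a yeast artificial chromosome (YAC) with a *LEU2* marker, grown in SC-Leu, or integrated on chromosome XI and grown in YPD. Each of the 4 strains gave 2 libraries from separate colonies, so 4 YAC libraries were set against 4 integrated libraries. Context and medium differ together in all 8 libraries and cannot be told apart.

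Yeast lacks the large complex I of other eukaryotes. Single-subunit NADH dehydrogenases and succinate dehydrogenase (complex II) feed electrons through ubiquinone to complex III, and cytochrome c carries them on to complex IV. L-lactate dehydrogenase passes its electrons to cytochrome c directly. The proton gradient that results from electron flow drives the ATP synthase. Most of these genes are known to be repressed by glucose and induced by haem, oxygen and non-fermentable carbon, in part through the Hap2/3/4/5 complex, which recognises the sequence CCAAT. A few subunits come as an aerobic and a hypoxic form, such as *COX5A* and *COX5B* or *CYC1* and *CYC7*.

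Each list held between 3463 and 4049 peaks. The median fold enrichment of nuclear peaks lay between 1.86 and 2.16 in YAC lists and between 2.16 and 2.36 in integrated lists, and the genome-wide background lay between 78.6 and 98.9 fragments per base in YAC lists and between 76.2 and 83.3 in integrated lists. The synHPRT1R YAC replicate 1 list stood apart, with the fewest peaks, the highest background and the lowest median fold enrichment. For synHPRT1 YAC replicate 2, 1 label names the other locus, and its title and genotype were followed. The windows of *URA3* and *MET17*, deleted in BY4741, held no peak in any library, that of *HIS3*, deleted in part, held one in all 8, and those of *ACT1*, *TDH3* and *PGK1* held one in all 8. The window of *LEU2*, the marker of the YAC, held a peak in 4 of 4 YAC and 0 of 4 integrated libraries.

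The respiratory genes carried a peak more often in the YAC libraries. A peak lay over 33, 34, 32 and 34 of the 39 genes in YAC libraries, against 30, 28, 30 and 30 in integrated libraries, where each set of 4 values gives synHPRT1 replicates 1 and 2 and then synHPRT1R replicates 1 and 2. The 2 contexts did not overlap, with means of 33.3 ± 0.96 in YAC and 29.5 ± 1.0 in integrated libraries (SD, n = 4 each). Over all 6002 genes the ranges overlapped and leaned the other way, with 76.1% to 79.4% of genes covered in YAC libraries and 78.2% to 80.8% in integrated libraries. No p-value was attached to the count over the 39 genes, because the list was chosen with earlier results of these data known. The count rested on weak peaks: when peaks with a −log10 q under 10 were dropped, the difference in the mean number of covered genes, YAC minus integrated, was −0.75. At that cut the count was not taken over all 6002 genes. A fixed cut can remove more peaks from YAC lists, whose median fold enrichment was lower.

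**Figure D1:**
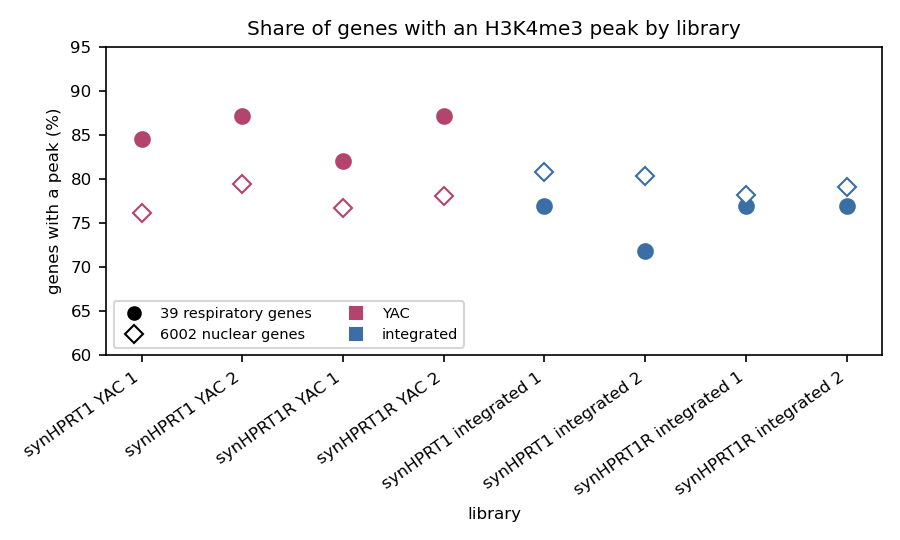
Percent of genes with at least 1 H3K4me3 peak over the gene window (y axis) in each library (x axis), for the 39 respiratory genes (filled circles) and all 6002 nuclear genes (open diamonds), with YAC libraries in red and integrated libraries in blue. Respiratory genes sit between 82.1% and 87.2% in YAC libraries and between 71.8% and 76.9% in integrated libraries; the y axis starts at 60.

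Of the 39 genes, 26 (66.7%) had a peak in all 8 libraries, against 67.3% of all genes, 3 had none in any library and 10 had one in some. In 8 of those 10 more YAC than integrated libraries held a peak, and in 0 fewer, while of all 6002 genes 319 had more YAC and 642 more integrated libraries. With a −log10 q of at least 10, 8 of the 39 had more YAC and 9 more integrated libraries. Where the summit had to lie in the window these counts were 10 and 3, and with 500 bp upstream 6 and 0. They were not taken over all genes. Peaks in all 4 YAC and 0 integrated libraries were found at *CYC1* and *COX12*. That pattern was found at 8 of all 6002 genes, 0.133%, and beside *CYC1* and *COX12* these were *LEU2*, *HMX1*, YLR326W, *ATG33*, *COT1* and *COA2*. No respiratory gene had the opposite pattern of 0 YAC and 4 integrated libraries, which 16 of all genes, 0.267%, had.

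**Figure D2:**
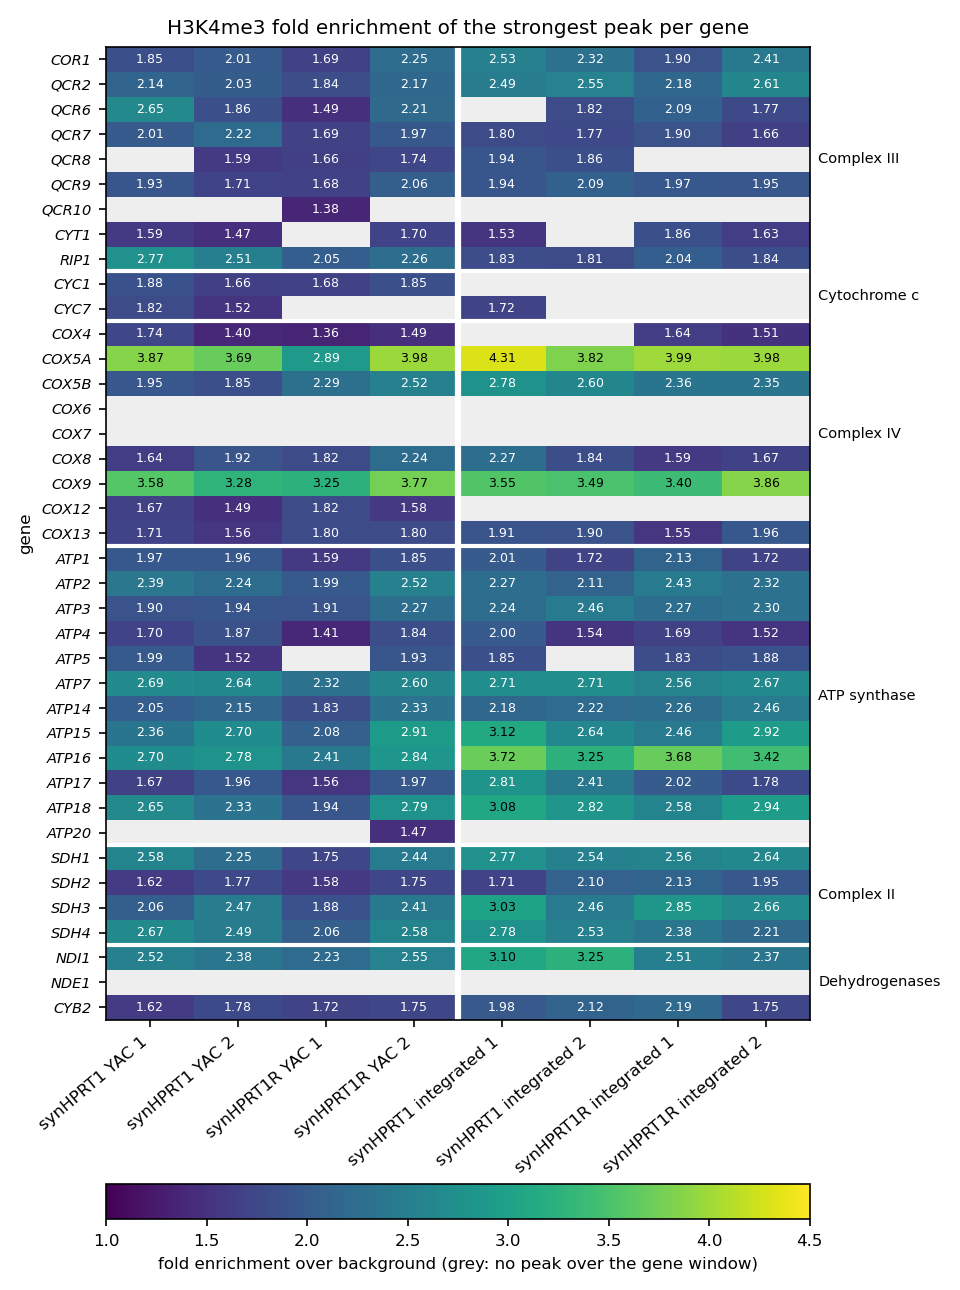
Fold enrichment over background of the strongest H3K4me3 peak over each of the 39 genes (rows, by complex) in each library (columns, YAC left of integrated); grey marks a library with no peak over the gene window. *COX5A* and *COX9* stand at 2.89 to 4.31 in every library, *CYC1* and *COX12* are filled in the 4 YAC columns alone, and *COX6*, *COX7* and *NDE1* are empty throughout.

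The sequences under 3 peaks are given: *CYC1* and *COX12*, the 2 genes with peaks in all YAC and no integrated libraries, and *RIP1*, whose difference in fold enrichment was the largest of the 26 genes tested but did not pass the test. They were read from the RefSeq R64 genome (the sacCer3 build), along the strand of each gene. The *CYC1* peak is the union of 4 YAC peaks at chrX:525957-526209 (+), and capitals mark the span of their 4 summits, 17 bases. The *COX12* peak is the union of the 3 narrow YAC peaks at chrXII:224906-225142 (−), in the coding sequence and 15 bp beyond it, and capitals mark the 7 bases spanned by their summits. The *RIP1* sequence is the stretch shared by the main peaks of all 8 libraries at chrV:106808-107074 (+), upstream of the gene, and capitals mark the 43 bases spanned by the 8 summits.
CYC1: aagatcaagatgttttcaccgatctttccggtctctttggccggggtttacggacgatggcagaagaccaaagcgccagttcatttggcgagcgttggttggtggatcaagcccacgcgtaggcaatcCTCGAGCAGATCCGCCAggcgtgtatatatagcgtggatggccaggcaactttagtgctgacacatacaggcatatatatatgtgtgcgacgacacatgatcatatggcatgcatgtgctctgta
COX12: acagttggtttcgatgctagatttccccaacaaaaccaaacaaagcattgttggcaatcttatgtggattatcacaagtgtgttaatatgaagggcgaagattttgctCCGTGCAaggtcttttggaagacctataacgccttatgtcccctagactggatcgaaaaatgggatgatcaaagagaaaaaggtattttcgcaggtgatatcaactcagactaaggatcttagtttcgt
RIP1: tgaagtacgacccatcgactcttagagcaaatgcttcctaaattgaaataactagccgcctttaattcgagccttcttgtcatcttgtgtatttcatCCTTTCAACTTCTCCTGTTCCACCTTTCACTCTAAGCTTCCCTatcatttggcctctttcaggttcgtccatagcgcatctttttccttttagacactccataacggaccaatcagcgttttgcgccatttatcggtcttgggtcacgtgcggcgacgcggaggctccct

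*CYC1* (YJR048W, chromosome X, 526335 to 526664, + strand) encodes iso-1-cytochrome c, the main form of the carrier between complexes III and IV under aerobic growth. Its peak had a fold enrichment of 1.88, 1.66, 1.68 and 1.85 in the 4 YAC libraries, and no peak was called in the 4 integrated libraries. The peaks were narrow, 189 to 232 bp, and their summits lay 234 to 250 bp upstream of the gene start, in the interval between *CYC1* and its divergent neighbour *ANB1*. Only their ends entered the gene window, covering 10.0%, 2.1%, 14.2% and 12.1% of it in YAC libraries against 0% in all 4 integrated libraries. In the integrated libraries the nearest peak lay 1393 to 1418 bp downstream of the window, with a fold enrichment of 3.61 to 4.05. The −log10 q of the *CYC1* peaks was 8.13 to 12.4, so that 2 of the 4 remained at a minimum of 10. The lowest fold enrichment called at the genome-wide background was 1.25 to 1.31 in YAC lists and 1.26 to 1.33 in integrated lists, under every *CYC1* value, and whether a weaker signal lay there in integrated libraries was not measurable from peak lists.

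*COX12* (YLR038C, chromosome XII, 224921 to 225172, − strand) encodes subunit VIb of cytochrome c oxidase, on the intermembrane face near the cytochrome c docking site. The fold enrichment over it was 1.67, 1.49, 1.82 and 1.58 in YAC libraries, with no peak in the 4 integrated libraries. In 3 YAC libraries the summit lay 138 to 144 bp downstream of the gene start, within the coding sequence. In synHPRT1R YAC replicate 1 the gene lay under the end of a wider peak of 897 bp whose summit was 737 bp downstream of the start, beyond the gene. Peaks covered 47.8%, 48.7%, 48.7% and 49.1% of the window in YAC libraries, against 0% in all 4 integrated libraries. In 3 integrated libraries the nearest peak lay 444 to 810 bp beyond the gene end, and in synHPRT1R integrated replicate 2 it lay 2839 bp away on the upstream side. The −log10 q ran from 4.70 to 11.97, and 1 of the 4 YAC peaks remained at a minimum of 10.

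**Figure D3:**
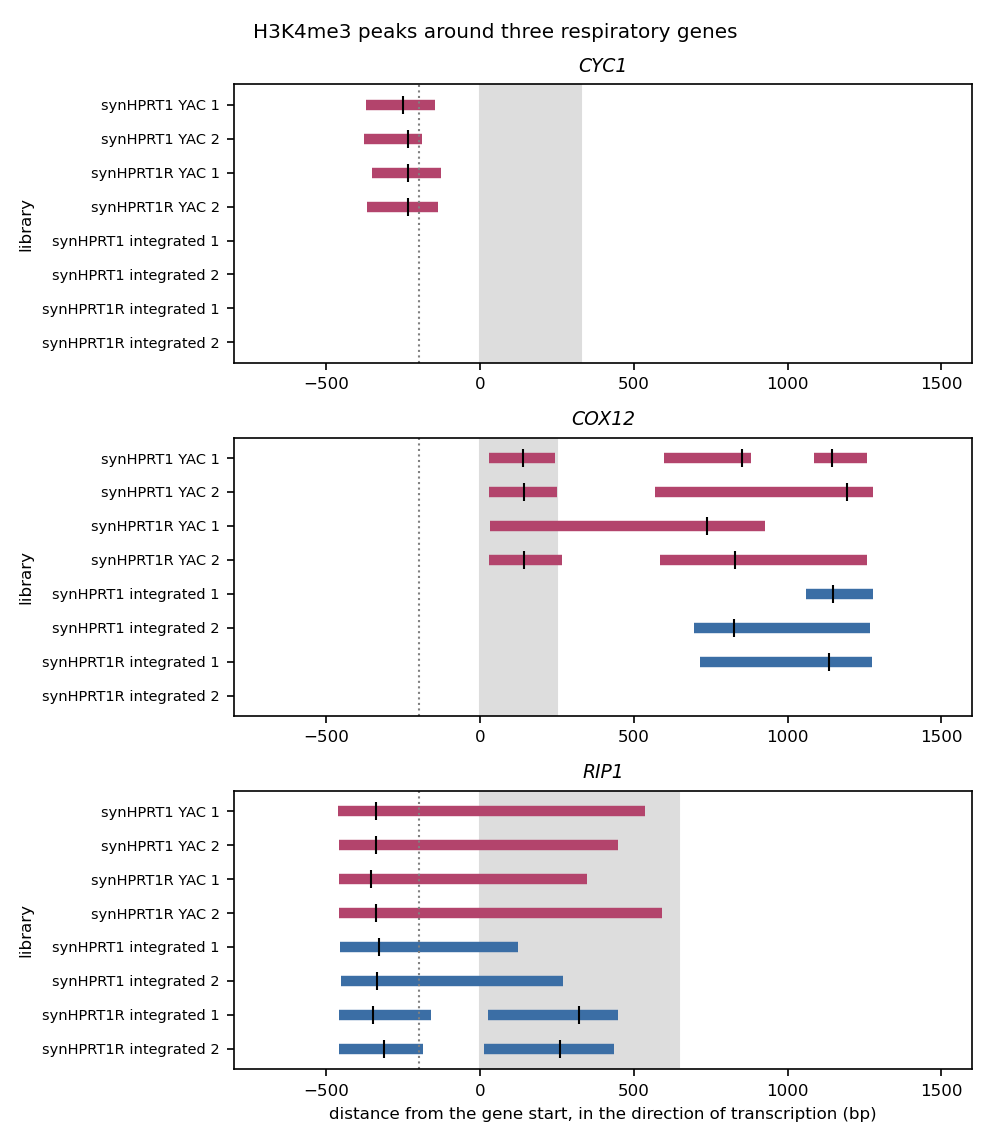
H3K4me3 peaks (bars) and their summits (black ticks) around *CYC1*, *COX12* and *RIP1* in each library (rows, YAC in red above integrated in blue), by distance from the gene start in the direction of transcription (x axis, bp); grey marks the gene and the dotted line the window limit 200 bp upstream. Peaks over the *CYC1* and *COX12* windows are seen in the 4 YAC libraries. At *RIP1* each YAC library has 1 joined peak, and synHPRT1R integrated replicates 1 and 2 have 2 peaks each, the second ending 449 and 437 bp downstream of the start.

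A further 8 genes had a peak in some libraries. *QCR10*, a small subunit of complex III, had a peak in synHPRT1R YAC replicate 1 only, with a fold enrichment of 1.38, and *ATP20*, subunit g of the ATP synthase, in synHPRT1R YAC replicate 2 only, with 1.47. *CYC7*, the hypoxic iso-2-cytochrome c, had a peak in both synHPRT1 YAC libraries (1.82 and 1.52) and in synHPRT1 integrated replicate 1 (1.72), and each time the summit, 501 to 698 bp upstream, was nearer the start of another gene. *QCR8* had a peak in 3 YAC (1.59, 1.66 and 1.74) and 2 integrated libraries (1.94 and 1.86), and *COX4* in 4 YAC (1.74, 1.40, 1.36 and 1.49) and 2 integrated libraries (1.64 and 1.51). *QCR6*, the hinge protein of complex III, had a peak in 4 YAC (2.65, 1.86, 1.49 and 2.21) and 3 integrated libraries (1.82, 2.09 and 1.77). *CYT1* and *ATP5*, the genes of cytochrome c1 and of the stalk subunit OSCP, had a peak in 3 libraries of each context and missed the same pair, synHPRT1R YAC replicate 1 and synHPRT1 integrated replicate 2.

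*COX6*, *COX7* and *NDE1* had no peak in any of the 8 libraries. *COX6* and *COX7* encode structural subunits of complex IV. The nearest peak lay 1593 to 1709 bp from the *COX6* window in YAC libraries and 1568 to 1693 bp in integrated libraries, on the upstream side. For *COX7* it lay 867 to 1135 bp away in YAC libraries and 866 to 1116 bp in integrated libraries, beyond the gene end. *NDE1*, the NADH dehydrogenase of the outer face of the inner membrane, had a peak just outside its window, 21 to 100 bp farther upstream in YAC libraries and 100 to 163 bp in integrated libraries, and counted as covered in all 8 with a window of 500 bp upstream.

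The mean level of H3K4me3, as centred log2 fold enrichment over 8 libraries, ran from −0.53 at *ATP4* to 0.64 at *COX5A*, and the differences between contexts from −0.21 to 0.52. Among the 26 genes with a peak in all 8 libraries, 17 lay below the median of the 4040 genes tested and 9 above it. Fold enrichment of the strongest peak was compared on a log2 scale after centring each library on its median, in limma with the locus as a covariate, and p-values were adjusted by the Benjamini-Hochberg method over all 4040 genes. Of the 26, 0 genes were called higher and 0 lower in YAC at an adjusted p under 0.05, and the background was as thin, with 0.0248% of all genes called higher (1 gene, *NPA3*) and 0% called lower. At an unadjusted p under 0.05 there were 7 of the 26 (26.9%) and 521 of all genes (12.9%). The median difference was 0.02 over the 26 genes and 0.00 over all genes. Without centring the median of all genes moved to −0.17, with 0 of the 26 called.

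**Figure D4:**
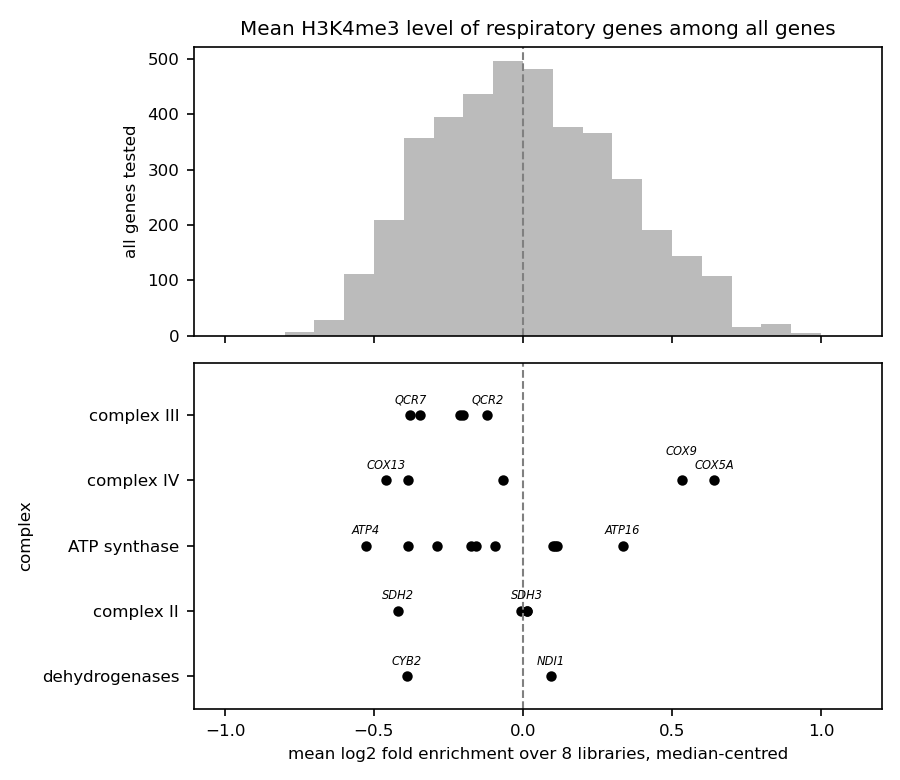
Upper panel, histogram of the mean log2 fold enrichment of the strongest peak over 8 libraries, each centred on its median (x axis), for the 4040 genes with a peak in all 8 (y axis, number of genes). Lower panel, the same value for each of the 26 respiratory genes by complex (points), with the lowest and highest of each complex and *COX9* named; 17 of the 26 lie left of the dashed median.

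In complex III, which passes electrons from ubiquinol to cytochrome c, 5 genes had a peak in all 8 libraries. *QCR2*, a core subunit, was the highest of them, with a fold enrichment of 2.14, 2.03, 1.84 and 2.17 in YAC libraries, against 2.49, 2.55, 2.18 and 2.61 in integrated libraries. *QCR7*, the lowest, had 2.01, 2.22, 1.69 and 1.97 in YAC libraries, against 1.80, 1.77, 1.90 and 1.66 in integrated libraries. The contexts did not overlap at *QCR2* and overlapped at *QCR7*. Relative to the median of each library the difference was −0.09 ± 0.07 for *QCR2* and 0.32 ± 0.09 for *QCR7* (log2, YAC minus integrated, SE), with limma adjusted p of 0.629 and 0.202. In 7 of 8 libraries the strongest *QCR2* summit lay nearer the start of a neighbouring gene. The *QCR7* values of both synHPRT1 YAC libraries, the 2 highest, came from summits at −1158 and −1137 bp, nearest the start of *APA2*, and enter the difference of 0.32.

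*RIP1* (YEL024W, chromosome V, 107260 to 107907, + strand), chosen after its values were seen because its difference was the largest of the 26, encodes the Rieske iron-sulfur protein of complex III. Its strongest peak had a fold enrichment of 2.77, 2.51, 2.05 and 2.26 in YAC libraries, against 1.83, 1.81, 2.04 and 1.84 in integrated libraries. All 4 YAC values lay above the 4 integrated ones, by a margin of 2.05 against 2.04 between the nearest libraries. The mean was 2.40 ± 0.31 in YAC and 1.88 ± 0.11 in integrated libraries (SD, n = 4 each). The difference was 0.52 ± 0.10 on the log2 scale (SE) and did not pass, with a limma adjusted p of 0.112. Without synHPRT1R integrated replicate 1, the highest integrated library, it was 0.60 with an adjusted p of 0.0185. The summits lay 339 to 355 bp upstream of the start in YAC and 313 to 349 bp upstream in integrated libraries. In YAC libraries a single peak of 807 to 1051 bp ran from there into the gene, covering 64.7% to 93.5% of the window, against 38.3% to 55.3% in integrated libraries, where the main peak was 273 to 721 bp long. In synHPRT1R integrated replicates 1 and 2 a second peak lay inside the gene, from 25 to 449 bp and from 14 to 437 bp downstream of the start, with a fold enrichment of 1.43 and 1.63, so that the contrast there was of 1 joined peak in YAC libraries against 2 separate ones. The difference in window share, 30.4 points ± 7.6 (SE), had a limma adjusted p of 0.324. When peaks with a −log10 q under 10 were dropped, it was 78.8 points with a limma adjusted p of 0.00847. A peak then remained in 4 YAC and 2 integrated libraries. The main peaks of synHPRT1 integrated replicates 1 and 2, with a −log10 q of 9.73 and 9.33, fell just under the cut. The cut itself thus widened the difference, at a gene chosen for its difference, so this call adds no evidence.

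In complex IV, cytochrome c oxidase, the spread between genes was widest. *COX5A*, the aerobic form of subunit 5, was the strongest member of all, with a fold enrichment of 3.87, 3.69, 2.89 and 3.98 in YAC libraries, against 4.31, 3.82, 3.99 and 3.98 in integrated libraries. It stood at percentile 97.7 of the genes tested, with its summit within 180 bp downstream and 9 bp upstream of its own start and its whole window under a peak in all 8 libraries. *COX13* was the lowest, at percentile 5.4, with 1.71, 1.56, 1.80 and 1.80 in YAC libraries, against 1.91, 1.90, 1.55 and 1.96 in integrated libraries. The contexts overlapped at both genes, and the centred difference was 0.01 ± 0.07 for *COX5A* and 0.09 ± 0.10 for *COX13* (log2, SE), with limma adjusted p of 0.963 and 0.700. The *COX13* values of synHPRT1 integrated replicate 1 and synHPRT1R integrated replicate 2 came from summits at −971 and −1121 bp. They enter the difference of 0.09, while the YAC summits of *COX13* lay at 164, −98, −81 and 197 bp. *COX5B*, the hypoxic form, had 1.85 to 2.52 in YAC and 2.35 to 2.78 in integrated libraries, and *COX9* had 3.25 to 3.77 in YAC and 3.40 to 3.86 in integrated libraries. In 6 of 8 libraries the strongest summit at each of these 2 genes lay nearer another gene's start.

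In the ATP synthase, 10 of 12 genes had a peak in all 8 libraries. *ATP16*, the delta subunit, was the highest, with a fold enrichment of 2.70, 2.78, 2.41 and 2.84 in YAC libraries, against 3.72, 3.25, 3.68 and 3.42 in integrated libraries. All 4 YAC values were lower than the 4 integrated ones. *ATP4*, subunit b of the stator stalk, was the lowest of all 26 at percentile 2.4, with 1.70, 1.87, 1.41 and 1.84 in YAC libraries, against 2.00, 1.54, 1.69 and 1.52 in integrated libraries, which overlap. The centred difference was −0.21 ± 0.07 for *ATP16* and 0.20 ± 0.09 for *ATP4* (log2, SE), with limma adjusted p of 0.275 and 0.381. Over the 10 genes the differences ran from −0.21 to 0.20, with 6 positive and 4 negative. The genes of the catalytic alpha and beta subunits, *ATP1* and *ATP2*, had 0.14 ± 0.10 and 0.18 ± 0.08 (SE).

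In complex II, succinate dehydrogenase, all 4 genes had a peak in all 8 libraries. *SDH3*, a membrane anchor, was the highest, with a fold enrichment of 2.06, 2.47, 1.88 and 2.41 in YAC libraries, against 3.03, 2.46, 2.85 and 2.66 in integrated libraries. *SDH2*, the iron-sulfur subunit, was the lowest, with 1.62, 1.77, 1.58 and 1.75 in YAC libraries, against 1.71, 2.1, 2.13 and 1.95 in integrated libraries. The contexts overlapped at both, with differences of −0.14 ± 0.08 and −0.05 ± 0.10 (log2, SE) and limma adjusted p of 0.470 and 0.842.

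Of the dehydrogenases, *NDI1*, the NADH dehydrogenase of the matrix face, had a fold enrichment of 2.52, 2.38, 2.23 and 2.55 in YAC libraries, against 3.10, 3.25, 2.51 and 2.37 in integrated libraries. *CYB2*, L-lactate cytochrome c oxidoreductase, had 1.62, 1.78, 1.72 and 1.75 in YAC libraries, against 1.98, 2.12, 2.19 and 1.75 in integrated libraries. After centring the differences were −0.02 ± 0.08 and −0.04 ± 0.10 (log2, SE), with limma adjusted p of 0.910 and 0.864. The *CYB2* summits lay 1481 to 1745 bp downstream of its start in all 8 libraries, at the far end of the gene and nearer the start of another gene.

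**Figure D5:**
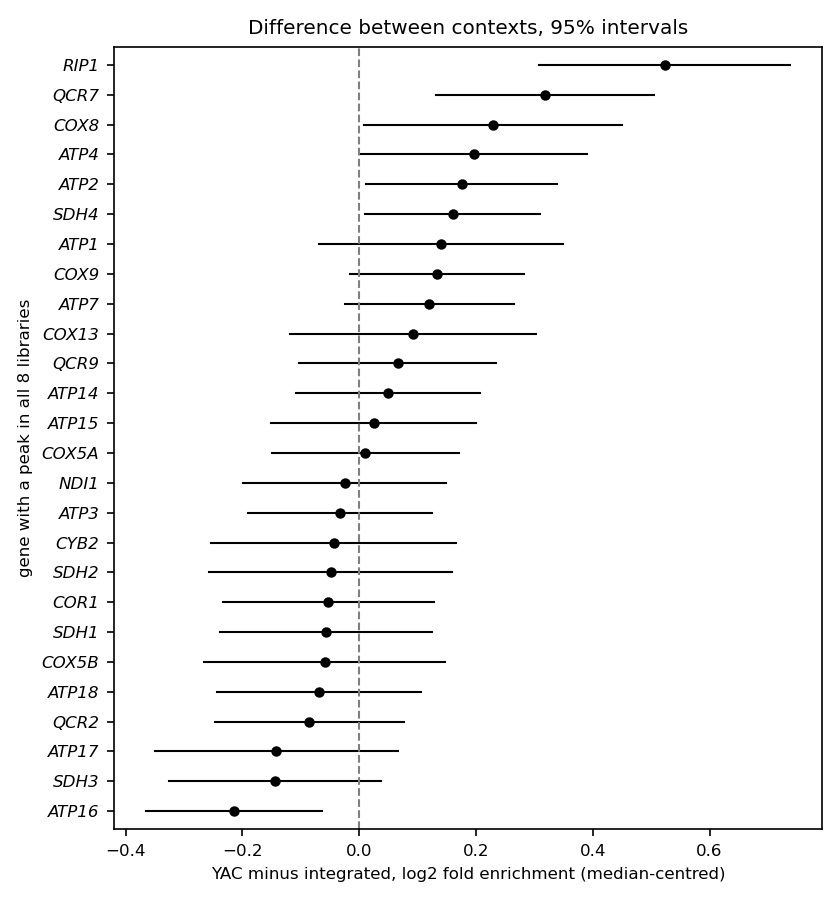
YAC minus integrated difference in log2 fold enrichment of the strongest peak, after centring each library on its median (x axis, points, with 95% intervals from limma as lines), for the 26 respiratory genes with a peak in all 8 libraries (y axis). *RIP1* at 0.52 and *ATP16* at −0.21 are the ends of the range.

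Without centring, the fold enrichments of the 2 contexts did not overlap at 3 of the 26 genes. *RIP1* was higher in YAC, against 0.173% of all 4040 genes with that order, and *QCR2* and *ATP16* were lower, against 18% of all genes. The lower order is thus common in these lists, whose median fold enrichment was lower in YAC libraries.

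The share of the window under peaks was tested over the 5196 genes with a peak in at least 1 library, 36 of them respiratory. *COX12* was called higher in YAC, by 48.6 points ± 0.54 (SE), with a limma adjusted p of 6.71e-07 over all 5196 genes. It was the only respiratory gene called in either direction, against a background of 0.135% of genes called higher and 0.577% called lower. The small error comes from peak edges that fell within 2 bp of each other on 1 side in the 4 YAC libraries, and from 0% in all integrated libraries. *COX12* entered this test through its YAC peaks alone. The call therefore repeats its pattern of peak presence and adds no evidence to it. The call was lost when peaks under a −log10 q of 10 were dropped (12.2 points, adjusted p 0.722) and in a region from 200 bp upstream to 800 bp downstream of the start (47.5 points, adjusted p 0.122). *CYC1* had 9.58 points ± 2.30 (SE) more in YAC, with an adjusted p of 0.299, and 11.9 points with an adjusted p of 0.0257 without synHPRT1 YAC replicate 2. At an unadjusted limma p under 0.05 there were 7 of the 36 (19.4%) and 484 of all 5196 genes (9.31%). *COX12* and *CYC1* were among the 7.

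The 2 loci were compared for the same contrast with an interaction term in limma. At an adjusted p under 0.05, 0 of 26 respiratory genes differed between synHPRT1 and synHPRT1R in fold enrichment (3 at an unadjusted p under 0.05) and 0 of 36 in window share (4 at an unadjusted p under 0.05). Of all genes, 10 of 4040 and 44 of 5196 were called. The shares at an unadjusted p under 0.05 were 11.5% of the respiratory genes and 9.41% of all genes in fold enrichment, and 11.1% and 10.0% in window share.

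The strongest peak was not always that of the gene itself. Of the 36 respiratory genes with a peak, 23 had the strongest summit nearest their own start in every library with a peak, 8 in some libraries and 5 in none. The 5 were *CYC7*, *ATP15*, *ATP18*, *SDH1* and *CYB2*. The summit lay between 200 bp upstream and 800 bp downstream of the start in every such library for 19 genes, in some for 9 and in none for 8. In the test restricted to peaks with such a summit, 13 respiratory genes were left and 0 were called by limma. At an unadjusted p under 0.05 there were 4 of the 13 (30.8%) and 265 of all 1918 genes in that test (13.8%).

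CCAAT was counted in the promoters. In the 300 bases from 250 before to 50 after the gene start, CCAAT was found on either strand in 33 of 39 respiratory genes (84.6%) and in 2601 of 6001 genes with a whole window (43.3%). The 3 genes without any peak, *COX6*, *COX7* and *NDE1*, and *COX12* were among the 33, and *CYC1* and *CYC7* were not. The *RIP1* sequence printed above holds CCAAT once, and the *CYC1* and *COX12* peak sequences hold it on neither strand, where 48.8% of 250-bp tiles of the nuclear genome hold it. Only exact CCAAT was counted, so a gene or peak without it may still hold a variant of the site.

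Among genes that serve the chain without being its subunits, 54 assembly and supporting factors were counted, 53 with a peak in at least 1 library. *COA2*, an assembly factor of cytochrome c oxidase (chromosome XVI, 188307 to 188513), had 88.2%, 93.4%, 91.4% and 94.6% of its window under peaks in YAC libraries, against 0% in all 4 integrated libraries. It was called higher (91.9 points ± 1.43 SE, limma adjusted p 3.18e-06). Like *COX12*, *COA2* entered this test through its YAC peaks alone, so the call repeats its pattern of peak presence and adds no evidence. Of all 5196 genes, 0.135% were called higher and 0.577% lower by window share. *SHY1*, another assembly factor of the same enzyme, had 23.9%, 23.9%, 23.4% and 24.2% in YAC libraries, against 35.8%, 36.2%, 36.4% and 35.1% in integrated libraries, and was called lower (−12.01 points ± 0.58 SE, adjusted p 0.000567). In fold enrichment 0 of the 41 factors tested were called by limma (2 at an unadjusted p under 0.05). Of 11 genes of the tricarboxylic acid cycle, 11 regulators that respond to haem, oxygen or carbon source, and 12 other dehydrogenases, carriers and paralogs, 0 were called by either measure, with 7, 8 and 7 tested for fold enrichment and 11, 10 and 10 for window share. At an unadjusted p under 0.05 these counts were 0, 2 and 0 for fold enrichment and 0, 2 and 1 for window share.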

How the data were processed

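Peak lists of 8 H3K4me3 CUT&RUN libraries were used. The 8 libraries made with IgG stayed out. Per the study's methods and the labels, the authors trimmed reads with Trimmomatic, aligned pairs with Bowtie2 2.2.9 to sacCer3 plus the synthetic contig, and called peaks with MACS2 2.1.0 in each library on its own, keeping duplicates and naming no control. The deposited lists give positions, a fold enrichment over local background (a ratio), −log10 p-values and −log10 q-values, and a score that was not tested. Without a control, copy number and accessible DNA can raise a peak, and a raised local background can hide one. The lists hold no read totals. Depth was read from the genome-wide background, solved from fold enrichment and p.

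Gene coordinates came from the RefSeq annotation of R64, the same build, with all 39 genes matched by symbol. The highest fold enrichment among peaks over a window, and the percent of the window under peaks, were fitted in limma 3.58.1 (R 4.3.3), with the trend for fold enrichment only. The study calls the colonies of a strain technical replicates in one place and biological replicates in another. In the main fits p-values measure the spread between colonies, together with any difference between loci in the context effect. Each context holds 2 strains with 2 colonies each. The members, lists and tests were chosen with earlier results of these data known. Values in every library are given for called genes, genes with peaks in all 4 libraries of one context and at most 1 of the other, genes without peaks, and the highest and lowest of each complex. Non-members were counted in 4 lists (assembly factors, tricarboxylic acid cycle, regulators, other dehydrogenases and carriers) and named where called. On simulated data with 4040 genes, 83.6% of planted log2 changes of 0.5 and 17.9% of 0.25 were recovered in the fold enrichment fit. With 5196 genes, 90.9% of planted changes of 50 points and 32.8% of 10 points were recovered in the window share fit. The simulated noise was normal and independent between genes. Real window shares are bounded, often exactly zero and shared between neighbours under 1 peak, so these rates may not hold for them. Alternatives were other peak, window and filter settings, other scalings, fits without the locus, with a replicate block or without the trend, and leaving out each library.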

Additional observations from a re-analysis of the deposited data

Results flagged for a closer look

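Of 48 sets of 4 libraries examined for 1 value far from the other 3, 7 stood out. A chance rate of about 1 in 20 would hold for independent values without ties. These sets share genes and libraries and hold ties, so the 7 were not read as an excess. In integrated libraries the number of respiratory genes with a peak was 28 in synHPRT1 replicate 2, against 30 in the other 3. The fold enrichment of *RIP1* was 2.04 in synHPRT1R integrated replicate 1, above the other 3. *COX13* in the same library had a fold enrichment of 1.55, below the others. The percent of the *COX13* window under peaks was 54.24 in synHPRT1 integrated replicate 1, below the others. *NDI1* had 50.69% of its window under peaks in synHPRT1 YAC replicate 1 and 52.99% in synHPRT1 integrated replicate 1, each above the other 3 libraries of its context. *CYB2* had 21.15% in synHPRT1 integrated replicate 1, below the others. In 3 of the 7 the library was synHPRT1 integrated replicate 1, and the cause was not tested.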

How the results depend on the processing

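The count of 2 respiratory genes with peaks in all YAC and no integrated library (*CYC1* and *COX12*) was 0 with a −log10 q of at least 10, 0 where the summit had to lie in the window and 1 in the gene start region; leaving out each library left 2. The mean number of covered genes, 3.75 higher in YAC, was −0.75 with a −log10 q of at least 10 and 3.25 to 4.17 without single libraries. Genes called higher in YAC by fold enrichment numbered 1 in place of 0 with no filter (*CYC1*, whose 4 integrated values were all filled in at the lowest fold of their lists, so that this call adds no evidence) and 0 to 1 without single libraries (*RIP1*, without synHPRT1R integrated replicate 1, 0.6). By window share, the gene called higher with a −log10 q of at least 10 was *RIP1* (78.8 points, limma adjusted p 0.00847) and not *COX12*. That cut removed the *RIP1* peaks of synHPRT1 integrated replicates 1 and 2, so this call adds no evidence. Genes called higher numbered 0 in the gene start region and 0 among genes with a peak in all 8 libraries, where *COX12* is not tested. They numbered 1 to 2 without single libraries, with *QCR6* called without synHPRT1 YAC replicate 1 (15.2 points, adjusted p 0.0135) and *CYC1* without synHPRT1 YAC replicate 2. Genes called lower numbered 0 to 1, with *COX5B* called without synHPRT1R integrated replicate 1 (−31.2 points, adjusted p 0.0171). By window share, limma adjusted p over the alternatives ran from 1.9e-08 to 0.722 for *COX12* and from 0.0257 to 0.687 for *CYC1*. By fold enrichment it ran from 0.0185 to 0.404 for *RIP1*. Replicate numbers did not pair the samples (correlations of −0.189 to 0.107 between groups), and with the replicate block 0 of 26 genes were called by fold enrichment and 1 of 36, *COX12*, by window share. Of all genes, without centring 0 were called higher and 147 lower by fold enrichment, against 1 and 0. Peak lists give no value where no peak was called, so an absent peak bounds no level, and with 4 colonies a context small log2 changes are rarely called.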
